A study of Homo sapiens with 6 samples.

Results

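The genes described here are 43 genes of the protein folding machinery of the cytosol, the mitochondria and, with HSP90B1, the endoplasmic reticulum: the heat shock proteins, the chaperonins and the cochaperones that serve them and their client receptors. They were picked by name out of 62703 genes counted, and no measured value enters the rule. The list was, however, chosen with earlier results of these data known. Shares of members set beside shares of all genes below are therefore descriptions. All 43 were among the 17901 genes that passed the expression filter, so that every member was tested. They comprise 7 HSP70 and HSP110 genes, 4 HSP90 genes, 1 small heat shock protein, 2 subunits of the mitochondrial chaperonin, 8 subunits of the cytosolic chaperonin TRiC, 5 prefoldin subunits, 6 J-domain proteins, 3 BAG proteins, 6 HSP90 cochaperones and the heat shock factor HSF1.

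The libraries were strand-specific poly(A) RNA-seq libraries of 22Rv1, a human prostate cancer cell line. Small interfering RNA was transfected in pools of 25 pmol, either non-targeting (siCtrl, n = 3) or against MED12 (siMED12, n = 3), with the same transfection reagent in both groups. Transfection took place 24 hours after seeding, the medium was replaced 6 hours later, and RNA was collected on day 3. The knockdown was transient, used pooled siRNAs in 1 cell line and left the MED12 gene intact, so that residual MED12 mRNA was present. MED12 is a subunit of the kinase module of Mediator, the complex that connects transcription factors with RNA polymerase II. The labels number the libraries of each group from 1 to 3, and libraries of the same number deviated together from their group means, so the number was taken as a pairing of siCtrl with siMED12 libraries. The labels do not say whether the replicates were separate cultures, and the study's methods describe biological replicates in general. Without the replicate block described below, p-values rest on the spread between these libraries. With it, they rest on the spread left after differences between replicate numbers are removed.

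Chaperones bind unfolded or partly folded proteins and release them in cycles driven by ATP. HSP70 proteins act early on short hydrophobic stretches, with J-domain proteins delivering clients and BAG proteins releasing nucleotide, while HSP90 acts late on nearly folded clients such as kinases and steroid hormone receptors. Barrel-shaped chaperonins enclose whole proteins: TRiC folds actin and tubulin, which prefoldin hands to it, and HSPD1 with its lid HSPE1 folds proteins imported into mitochondria. In the heat shock response, HSF1 binds heat shock elements in the promoters of many of these genes, and in the prostate, the HSP90 machinery is known for holding nuclear hormone receptors in a form that can bind ligand.

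Promoter sequences of 6 members are shown because they represent the kinds of regulatory element found upstream of genes that moved and of genes that did not. They are the 250 bases before the start of the RefSeq transcript on the coding strand of build GRCh38.p14, printed 5′ to 3′. The HSP90B1 window is chr12:103930160-103930409 (plus strand), HSPD1 chr2:197499841-197500090 (minus strand), HSPE1 chr2:197500129-197500378 (plus strand), HSPA8 chr11:123062137-123062386 (minus strand), HSP90AA1 chr14:102087045-102087294 (minus strand) and HSPA1A chr6:31815293-31815542 (plus strand). The HSPA1A window ends directly before the annotated gene, whereas the other windows lie partly or wholly inside the span of their gene because Gencode also annotates longer transcripts. HSPD1 and HSPE1 lie head to head on chromosome 2, with their windows next to each other. Capitals mark the ER stress element in HSP90B1, the E-box in HSPE1 and heat shock elements in the remaining windows.
HSP90B1: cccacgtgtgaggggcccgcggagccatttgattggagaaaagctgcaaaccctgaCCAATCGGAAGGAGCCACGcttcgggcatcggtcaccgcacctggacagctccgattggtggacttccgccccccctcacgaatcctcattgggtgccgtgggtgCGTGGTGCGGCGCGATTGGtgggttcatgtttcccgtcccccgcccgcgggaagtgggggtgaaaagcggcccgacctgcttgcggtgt
HSPD1: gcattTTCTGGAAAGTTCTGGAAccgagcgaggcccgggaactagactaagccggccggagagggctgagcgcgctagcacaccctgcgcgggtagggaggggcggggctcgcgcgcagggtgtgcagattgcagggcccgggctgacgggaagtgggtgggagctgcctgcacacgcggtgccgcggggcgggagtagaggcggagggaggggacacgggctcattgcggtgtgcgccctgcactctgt
HSPE1: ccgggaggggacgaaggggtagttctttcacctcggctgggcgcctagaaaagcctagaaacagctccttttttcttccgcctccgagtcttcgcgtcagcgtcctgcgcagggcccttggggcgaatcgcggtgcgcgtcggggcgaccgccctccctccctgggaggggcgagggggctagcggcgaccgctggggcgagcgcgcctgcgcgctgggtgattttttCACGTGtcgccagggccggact
HSPA8: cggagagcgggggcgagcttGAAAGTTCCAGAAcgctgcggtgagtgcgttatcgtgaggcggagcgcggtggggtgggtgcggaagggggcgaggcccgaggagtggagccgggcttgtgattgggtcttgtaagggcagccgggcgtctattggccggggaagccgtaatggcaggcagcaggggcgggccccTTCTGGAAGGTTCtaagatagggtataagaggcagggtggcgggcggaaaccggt
HSP90AA1: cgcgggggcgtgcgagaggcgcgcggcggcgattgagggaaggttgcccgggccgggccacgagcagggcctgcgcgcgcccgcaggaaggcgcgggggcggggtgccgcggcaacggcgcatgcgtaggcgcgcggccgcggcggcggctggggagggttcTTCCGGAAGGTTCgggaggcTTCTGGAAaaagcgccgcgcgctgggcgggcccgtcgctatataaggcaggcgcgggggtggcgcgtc
HSPA1A: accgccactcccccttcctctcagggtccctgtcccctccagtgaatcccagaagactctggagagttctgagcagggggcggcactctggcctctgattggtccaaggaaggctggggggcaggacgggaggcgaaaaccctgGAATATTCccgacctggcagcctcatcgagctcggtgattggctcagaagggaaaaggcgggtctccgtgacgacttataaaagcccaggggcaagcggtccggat

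Of the 43 members, 37 had a promoter in the RefSeq table, with 49 promoters between them; ST13, CCT6A, HSF1, PFDN2, HSPA14 and FKBP4 had none. A pair of heat shock units (GAANNTTC or TTCNNGAA, each its own reverse complement) was found in 15 of the 49 member promoters, or 30.6%, against 11.6% of the 35116 promoters in the table. These belonged to 14 members, BAG2, CCT2, DNAJA1, DNAJB1, DNAJB6, HSP90AA1, HSP90AB1, HSPA1A, HSPA1B, HSPA8, HSPB1, HSPD1, PFDN6 and TCP1. A run of 3 units (GAANNTTCNNGAA or TTCNNGAANNTTC, which contains pairs and so overlaps the previous motif) was found in 5 member promoters, or 10.2%, against 0.441% of all promoters. These were promoters of HSPD1, HSPA8, HSP90AA1, HSP90AB1 and DNAJB6. The E-box CACGTG, the motif bound by MYC and other basic helix-loop-helix proteins, was present in 4 member promoters, those of HSP90B1, HSPA9, HSPD1 and HSPE1, or 8.16%, against 6.34% of all promoters. The HSPD1 match lies in a second annotated promoter, which is not printed here, and is the same E-box as that of HSPE1 (chr2:197500357-197500362), read from the other strand. The ER stress element (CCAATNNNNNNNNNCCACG on either strand) was found in 1 member promoter, that of HSP90B1, which held 2 copies, against 0.074% of all promoters. The TATA box TATAAA, searched on both strands, occurred in HSPA1A, HSPA1B and STIP1, and in 10.7% of all promoters. The CCAAT box, which overlaps the ER stress element, was present in 15 member promoters, or 30.6%, against 32% of all promoters. A match is a run of letters in a window and no evidence of binding.

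The libraries held between 16136699 and 17012788 counts, with 25802 to 27404 genes detected in each. Mitochondrially encoded genes took 4.43% to 10.1% of counts, and this share followed the replicate number and not the treatment. Levels are given in CPM, read counts scaled to the library sizes after adjustment by trimmed mean of M-values (TMM). MED12 (ENSG00000184634, chrX:71118543-71144103, plus strand) stood at 67.8, 77.7 and 72.6 CPM in siCtrl replicates 1 to 3 and at 23.9, 14.97 and 30.1 CPM in siMED12 replicates 1 to 3. The targeted mRNA was therefore lower in each siMED12 library than in any siCtrl library, with a log2 fold change of -1.66 ± 0.23 (SE; adjusted p = 0.0314 by edgeR's quasi-likelihood test) and -1.68 ± 0.10 with the replicate block described below (adjusted p = 1.52e-16). Of 7 luminal prostate markers, KRT8, KRT18 and the kallikreins KLK2, KLK3 and KLK4 were lower in siMED12, and HOXB13 was higher. The TMPRSS2 ranges overlapped, but it was higher in all 3 pairs (0.17 ± 0.06, adjusted p = 0.0176 by the same test with the block). The summed level of the 7 markers was 2170 ± 86.7 CPM (SD) in siCtrl and 1670 ± 56.3 CPM in siMED12. The 7 fibroblast, immune and endothelial markers summed to 16.5 to 29.1 CPM in siCtrl against 16.9 to 28.0 CPM in siMED12, nearly all of it COL1A1, and PTPRC, CD68, PECAM1, VWF and COL1A2 were at or near 0. In RNA from whole cultures, less RNA per cell and fewer cells of a kind cannot be told apart.

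Chaperone mRNAs were lower after MED12 knockdown across nearly all classes, by modest amounts. The 43 members together took 15432, 17055 and 15267 CPM in siCtrl against 12385, 13221 and 12476 CPM in siMED12. The groups did not overlap, and the mean sum changed by -20.3%, with -19.7%, -22.5% and -18.3% within the 3 pairs. The log2 fold change was below 0 for 39 members (90.7%, against 47.6% of all genes tested), with a median of -0.25 against 0.02 over all genes. The lowest member was HSP90B1 at -0.54 and the highest PFDN5 at 0.17.

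Whether single members passed the test depended on the pairing. With treatment as the only term, no member reached an adjusted p below 0.05 in edgeR's quasi-likelihood test (0 lower and 0 higher), where 0.413% of all genes were called lower and 0.151% higher. The adjusted p of the members ran from 0.0537 for HSPD1 to 0.973 for HSPA4. At an unadjusted p below 0.05, 22 members were lower (51.2%) and 0 higher, against 7.93% and 7.65% of all genes. With the replicate number as a block, 29 members passed as lower (67.4%) and 0 as higher, against 16.2% and 17.1% of all genes. The block reduced the common dispersion, the squared coefficient of variation between libraries beyond counting error, from 0.0368 to 0.00228. In the class descriptions below, "fell" and "passed" refer to an adjusted p below 0.05 with the block, and no member fell without it.

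The remaining counts took the same direction. The siMED12 values lay wholly below the siCtrl values for 21 members (48.8%) and wholly above them for 0, against 10.9% and 11.2% of all genes. In 34 members the siMED12 library was lower in all 3 pairs (27.0% of all genes), and in 3 members, PFDN5, DNAJB1 and BAG3, it was higher in all 3 pairs (30.6% of all genes). The other 6 members changed sign between pairs. With an offset for GC content and transcript length added to the block, 30 members passed as lower and 0 as higher, against 16.7% and 15.6% of all genes. Members with high counts passed more often, as did genes in general. In a comparison added after seeing the data, 24 of 28 members with a mean of at least 100 CPM fell, whereas 36.0% of the 2494 genes above that level were called lower and 23.9% higher. Below 100 CPM, 5 of 15 members fell and 0 rose, whereas 13.0% of the 15407 genes below that level were called lower and 16.0% higher. The median log2 fold change of the 28 abundant members was -0.27, against -0.03 for all genes above 100 CPM.

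**Figure D1:**
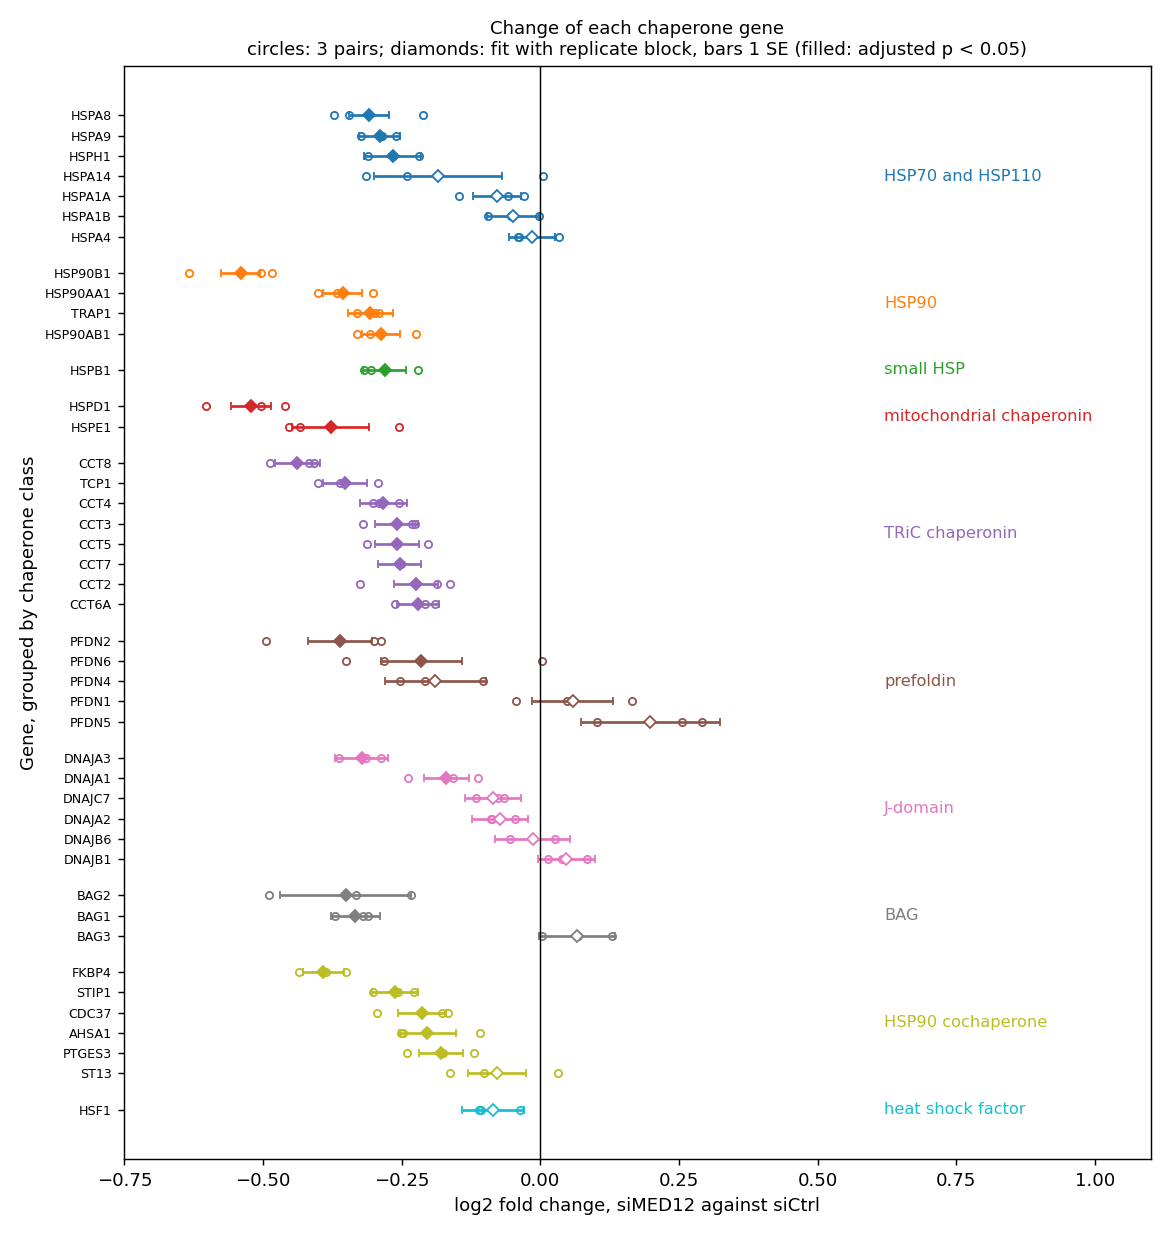
Log2 fold change of siMED12 against siCtrl for the 43 members, grouped by class; circles are the 3 pairs, and diamonds with bars are the estimate and standard error with the replicate block, filled where the adjusted p is below 0.05. Filled diamonds lie between -0.54 and -0.17, and no filled diamond lies to the right of 0.

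**Figure D2:**
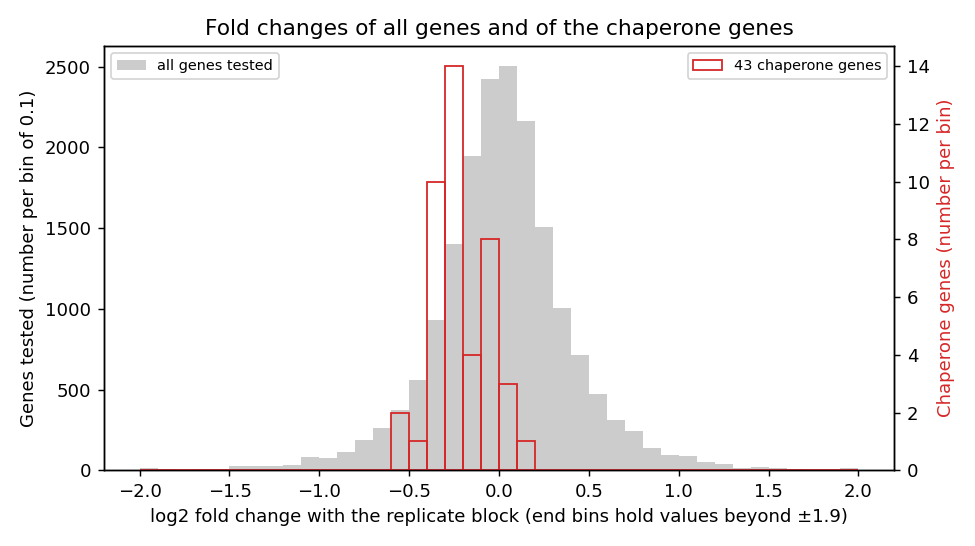
Distribution of log2 fold changes with the replicate block (x axis) for all 17901 genes tested (grey bars, left axis, genes per bin of 0.1) and for the 43 chaperone genes (red outlines, right axis). All genes centre on 0.02, and the chaperone genes on -0.25, within the bulk of the distribution.

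Among the HSP70 and HSP110 genes, HSPA8, HSPA9 and HSPH1 fell, while the stress-inducible pair HSPA1A and HSPA1B did not pass. HSPA8, the constitutive cytosolic HSP70, stood at 1348, 1503 and 1215 CPM in siCtrl against 1061, 1162 and 1049.7 CPM in siMED12. The groups did not overlap, although siCtrl replicate 3 was only slightly above siMED12 replicate 2, and the log2 fold change was -0.31 ± 0.04 (SE; adjusted p = 6.55e-09 with the block and 0.2 without). HSPA9, the mitochondrial HSP70 that pulls imported proteins into the matrix, measured 630.4, 701 and 574 CPM in siCtrl against 504, 575 and 479 CPM in siMED12. Its groups touched, siMED12 replicate 2 being level with siCtrl replicate 3, and the pairs changed by -20.05%, -17.99% and -16.5% (log2 fold change -0.29 ± 0.04, adjusted p = 4.38e-08 with the block). HSPH1, an HSP110 that exchanges nucleotide on HSP70, measured 107, 115 and 90.3 CPM in siCtrl against 88.7, 92.8 and 77.6 CPM in siMED12. It also overlapped between groups and fell within pairs (-0.27 ± 0.05, adjusted p = 6.97e-05).

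The stress-inducible HSP70 genes HSPA1A (chr6:31815543-31817946) and HSPA1B (chr6:31827738-31830254) lie side by side in the major histocompatibility complex region. HSPA1A stood at 171, 222 and 214 CPM in siCtrl against 164, 200.3 and 209 CPM in siMED12, and HSPA1B at 128, 137 and 144 CPM and 119.8, 132 and 144 CPM. Both sets of values overlapped almost completely, with log2 fold changes of -0.08 ± 0.04 (adjusted p = 0.166 with the block) and -0.05 ± 0.05 (adjusted p = 0.45). The pair is nearly identical in sequence: 75.1% of the 50-base stretches of HSPA1A also occur in HSPA1B, so the split of reads between them is uncertain. Their sum, which does not depend on that split, was 338 ± 34.4 CPM in siCtrl against 323 ± 35.6 CPM in siMED12, with pair changes of -5.01%, -7.32% and -1.30%. HSPA4, another HSP110, stood at 223, 229 and 194 CPM in siCtrl against 216, 234 and 189 CPM in siMED12, with a log2 fold change of -0.02 and pairs of both signs. HSPA14, a ribosome-associated HSP70, was low, at 13.9, 17.5 and 13.9 CPM in siCtrl against 13.9, 14.03 and 11.8 CPM in siMED12, and its pairs differed from 0.273% to -19.6%. It did not pass (-0.18 ± 0.12, adjusted p = 0.23 with the block). In all, 3 of the 7 genes fell and 0 rose, with a class median of -0.19 and a change of the summed level of -15.7%.

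The cytosolic, endoplasmic reticulum and mitochondrial HSP90 genes all fell, and the endoplasmic reticulum form had the largest change of the 43 members. HSP90B1 (chr12:103930107-103953931, plus strand) encodes GRP94, which folds secreted and membrane proteins including integrins. It stood at 2312, 2495 and 2676 CPM in siCtrl against 1652, 1608 and 1888 CPM in siMED12. Each siMED12 library was far below the lowest siCtrl library, with means of 2494 ± 182 (SD) and 1716 ± 151 CPM and pair changes of -28.5%, -35.6% and -29.4%. The log2 fold change was -0.54 ± 0.03 (SE; adjusted p = 1.15e-15 with the block and 0.0655 without).

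Cytosolic HSP90 consists of the heat-inducible HSP90AA1 and the constitutive HSP90AB1. HSP90AA1 measured 1349.8, 1549 and 1302 CPM in siCtrl against 1047, 1173 and 1056 CPM in siMED12, a log2 fold change of -0.36 ± 0.03 (adjusted p = 1.06e-10 with the block). HSP90AB1 measured 1434, 1666 and 1385 CPM and 1140.3, 1346 and 1186 CPM, a log2 fold change of -0.29 ± 0.03 (adjusted p = 1.45e-08). Neither gene overlapped between groups, and in both genes replicate 2 was the highest library of its group. Replicate 2 was the highest siCtrl library in 32 of the 43 members and the highest siMED12 library in 26. TRAP1, the mitochondrial HSP90, fell as well, from 269 to 307 CPM in siCtrl to 219 to 251 CPM in siMED12 (-0.31 ± 0.04, adjusted p = 9.13e-08). All 4 HSP90 genes thus fell, with a median of -0.33, and their sum went from 5683 ± 325 to 4269.6 ± 183 CPM, a change of -24.9%. Processed pseudogenes share 13.7% of the 50-base stretches of HSP90AA1 (HSP90AA2P) and 16.3% of those of HSP90AB1 (HSP90AB3P). HSP90AA2P had 56.08 to 62.62 CPM in siCtrl against 41.19 to 46.89 CPM in siMED12, and HSP90AB3P 114.9 to 140.6 CPM and 95.22 to 119.7 CPM, each far below its parent gene.

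HSPB1, a small heat shock protein that holds unfolded proteins without using ATP, was the one small heat shock protein among the members. It stood at 368, 390.0 and 381 CPM in siCtrl against 298, 313 and 327 CPM in siMED12. The groups were well separated, and the log2 fold change was -0.28 ± 0.04 (adjusted p = 3.01e-07 with the block). The offset for GC content and length brought it to -0.16 (adjusted p = 0.00316).

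The mitochondrial chaperonin had the largest change of any class by summed level, -30.2%. HSPD1 (chr2:197486584-197516737, minus strand), the barrel-forming HSP60, stood at 1218, 1396 and 1243 CPM in siCtrl against 886, 919 and 877 CPM in siMED12. The siMED12 libraries lay close together at 894 ± 22.5 CPM (SD), well below the siCtrl mean of 1286 ± 96.3 CPM, and the pairs changed by -27.3%, -34.1% and -29.5%. With a log2 fold change of -0.52 it had the lowest adjusted p of all members without the block, 0.0537, which became 8.21e-15 with it. HSPE1 (chr2:197500140-197503449, plus strand), the HSP10 lid of the same chamber, measured 46.8, 52.1 and 50.7 CPM in siCtrl against 34.2, 43.6 and 37.6 CPM in siMED12. Its groups did not overlap either, and it fell by 0.38 ± 0.07 on the log2 scale (adjusted p = 3.07e-05). The genes overlap by 135 bases on opposite strands, and 48.2% of the 50-base stretches of HSPE1 and 27.1% of those of HSPD1 occur in other genes. The pseudogene HSPD1P1 followed its parent, with 140.8 to 169 CPM in siCtrl against 94.08 to 105.5 CPM in siMED12, and how reads were divided between them is not stated.

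The 8 subunits of TRiC fell together. Their log2 fold changes with the block lay between -0.22 and -0.44, and 7 of the 8 had groups that did not overlap. CCT8, the theta subunit, moved furthest, from 290.0, 327 and 272 CPM in siCtrl to 219, 233 and 204 CPM in siMED12 (-0.44 ± 0.04, adjusted p = 3.42e-11 with the block and 0.0962 without). TCP1, the alpha subunit after which the complex is named, measured 341, 375 and 322 CPM in siCtrl against 266, 284 and 263 CPM in siMED12 (-0.35 ± 0.04, adjusted p = 3.73e-09). CCT3, the gamma subunit, measured 463, 503 and 433 CPM and 395, 403 and 371 CPM (-0.26 ± 0.04, adjusted p = 9.15e-07). The subunit with the most counts, CCT6A (zeta), had the smallest change, from 535, 607 and 494 CPM to 469, 507 and 428 CPM (-0.22 ± 0.04, adjusted p = 9.88e-06), and it was the 1 subunit whose groups overlapped. CCT2, CCT4, CCT5 and CCT7, the beta, delta, epsilon and eta subunits, lay between -0.22 and -0.28, with adjusted p values from 1.02e-06 to 2.33e-05. CCT7 changed by -16.00%, -16.1% and -16.2% in the 3 pairs. Summed TRiC mRNA went from 2980 ± 245 to 2460 ± 141 CPM (SD), a change of -17.5%. Each TRiC ring holds every subunit once, and the pairwise differences in fold change between subunits were not tested.

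Prefoldin, the jellyfish-shaped hexamer that delivers actin and tubulin to TRiC, fell in 2 of the 5 subunits among the members. The remaining subunit, VBP1, is not a member and did not pass (0.04 ± 0.05, adjusted p = 0.624 with the block). Its mean was 86.0 ± 3.98 CPM (SD) in siCtrl against 88.4 ± 6.36 CPM in siMED12. PFDN2 measured 77.3, 87.9 and 74.9 CPM in siCtrl against 62.8, 62.4 and 61.4 CPM in siMED12, with clearly separate groups (-0.36 ± 0.06, adjusted p = 4.14e-06 with the block). PFDN6 measured 49.5, 48.96 and 37.1 CPM in siCtrl against 38.8, 40.3 and 37.1 CPM in siMED12. It was lower in pairs 1 and 2 and level in pair 3, and its call (-0.21 ± 0.07, adjusted p = 0.0194) was lost in the blocked fit with scaling by library size alone (adjusted p = 0.0601), with the GC and length offset (adjusted p = 0.176) and without pair 1 (adjusted p = 0.204) or pair 2 (adjusted p = 0.0609). PFDN4 went from 21.1, 20.9 and 27.4 CPM to 19.6, 18.1 and 22.97 CPM and did not pass (-0.19 ± 0.09, adjusted p = 0.11).

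PFDN1 measured 36.1, 41.9 and 33.8 CPM in siCtrl against 40.5, 43.3 and 32.8 CPM in siMED12, with a log2 fold change of 0.06. PFDN5, also known as a MYC-binding protein, was the member with the widest spread, with 6.07, 7.59 and 20.2 CPM in siCtrl against 7.43, 9.06 and 21.7 CPM in siMED12. Replicate 3 was far above the other replicates in both groups, which is where the mitochondrially encoded share was also highest (10.0% in siCtrl and 10.1% in siMED12); whether these are linked was not tested. All 50-base stretches of PFDN5 also occur in an overlapping gene on the same strand (ENSG00000288663, 1.487 to 3.901 CPM), so its counts are uncertain. Without the block its standard error was 0.53 on the log2 scale, larger than its change of 0.17.

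The J-domain proteins, which stimulate the ATPase of HSP70 and choose its clients, had the smallest change in summed level of the classes with more than 1 member. DNAJA3, which works with HSPA9 in mitochondria, fell from 139.9, 139 and 112 CPM to 109, 112 and 91.7 CPM (-0.32 ± 0.05, adjusted p = 1.18e-06 with the block). DNAJA1, the main cytosolic class A J-protein, measured 318, 327 and 286 CPM in siCtrl against 269, 302 and 256 CPM in siMED12 (-0.17 ± 0.04, adjusted p = 0.001), the smallest change that passed. Both genes overlapped between groups and were lower in all 3 pairs. DNAJC7, which binds both HSP70 and HSP90, measured 108, 102 and 97.4 CPM and 103, 94.3 and 92.4 CPM and did not pass (-0.09 ± 0.05, adjusted p = 0.198). DNAJA2 had a log2 fold change of -0.07 and passed only with the GC and length offset (-0.13, adjusted p = 0.0426). DNAJB6, a suppressor of aggregation, stood at 43.8, 44.2 and 43.04 CPM in siCtrl against 42.2, 45.02 and 42.6 CPM in siMED12, almost the same in all 6 libraries, with a log2 fold change of -0.01. Of its 50-base stretches, 19.2% also occur in the pseudogene DNAJB6P1, which was listed at 35.05 to 48.39 CPM and so as high as the gene itself, which makes the counts of DNAJB6 uncertain. DNAJB1, the heat-inducible HSP40, measured 83.5, 105 and 92.9 CPM in siCtrl against 84.3, 111 and 95.4 CPM in siMED12 (0.05 ± 0.05, adjusted p = 0.53). The class median was -0.08, and the summed level changed by -8.76%.

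Of the 3 BAG proteins, BAG1 and BAG2 fell and BAG3 did not pass. BAG1, a nucleotide exchange factor with nuclear and cytosolic forms, went from 185, 192 and 175 CPM to 149, 149 and 140.2 CPM, with a gap between the groups (-0.33 ± 0.04, adjusted p = 1.05e-07 with the block). BAG2, an inhibitor of the HSP70-linked ubiquitin ligase CHIP, was a gene of few counts, at 13.98, 15.2 and 14.2 CPM in siCtrl against 11.1, 10.8 and 12.1 CPM in siMED12. Its call (-0.35 ± 0.12, adjusted p = 0.019) was lost without pair 1 (adjusted p = 0.0545) or pair 2 (adjusted p = 0.118), with log2 fold changes of -0.38 and -0.31, and 2939 exonic bases of the gene overlap genes on the opposite strand. BAG3, a heat-inducible partner of HSPB proteins in selective autophagy, measured 42.2, 45.7 and 37.2 CPM in siCtrl against 44.2, 45.8 and 40.7 CPM in siMED12 (0.07 ± 0.07, adjusted p = 0.508).

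Of the 6 HSP90 cochaperones among the members, 5 fell. FKBP4 (FKBP52), an immunophilin that promotes hormone binding by steroid receptors held on HSP90, stood at 539, 613 and 525 CPM in siCtrl against 412, 453 and 412 CPM in siMED12. The lowest siCtrl library was above the highest siMED12 library, with means of 559 ± 47.3 (SD) and 426 ± 23.7 CPM and a log2 fold change of -0.39 ± 0.04 (adjusted p = 7.39e-11 with the block and 0.109 without). STIP1 (HOP), the adaptor that passes clients from HSP70 to HSP90, went from 262, 277 and 254 CPM to 224, 224 and 213 CPM (-0.26 ± 0.04, adjusted p = 2.59e-06). CDC37, which loads kinases onto HSP90, measured 198, 216 and 244 CPM in siCtrl against 175, 192 and 199 CPM in siMED12, overlapping by 1 library (-0.21 ± 0.04, adjusted p = 0.000132).

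AHSA1, the activator of the HSP90 ATPase, and PTGES3 (p23), which stabilises the closed HSP90 dimer around a mature receptor, had smaller changes of -0.20 (adjusted p = 0.00154) and -0.18 (adjusted p = 0.000476). ST13 (HIP), which holds HSP70 in its ADP-bound form, measured 104, 109 and 99.5 CPM in siCtrl against 97.1, 97.1 and 102 CPM in siMED12. It did not pass with the block alone (-0.08, adjusted p = 0.259) and passed with the GC and length offset (-0.14, adjusted p = 0.027). Of its 50-base stretches, 34.4% occur in other genes. The summed level of the 6 members of the class changed by -16.8%. HSP90 cochaperones outside the members were split. Of 16 tested, 8 had a log2 fold change below 0, and the median was -0.03. With the block, 5 of the 16 passed as lower and 3 as higher, against 16.2% and 17.1% of all genes.

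HSF1, the transcription factor of the heat shock response, measured 79.2, 73.2 and 73.5 CPM in siCtrl against 73.4, 71.4 and 68.2 CPM in siMED12. The groups overlapped, and the log2 fold change was -0.09 ± 0.06 (adjusted p = 0.256 with the block) and 0.00 with the GC and length offset. HSF1 is regulated largely after translation, and its mRNA level does not report its activity.

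**Figure D3:**
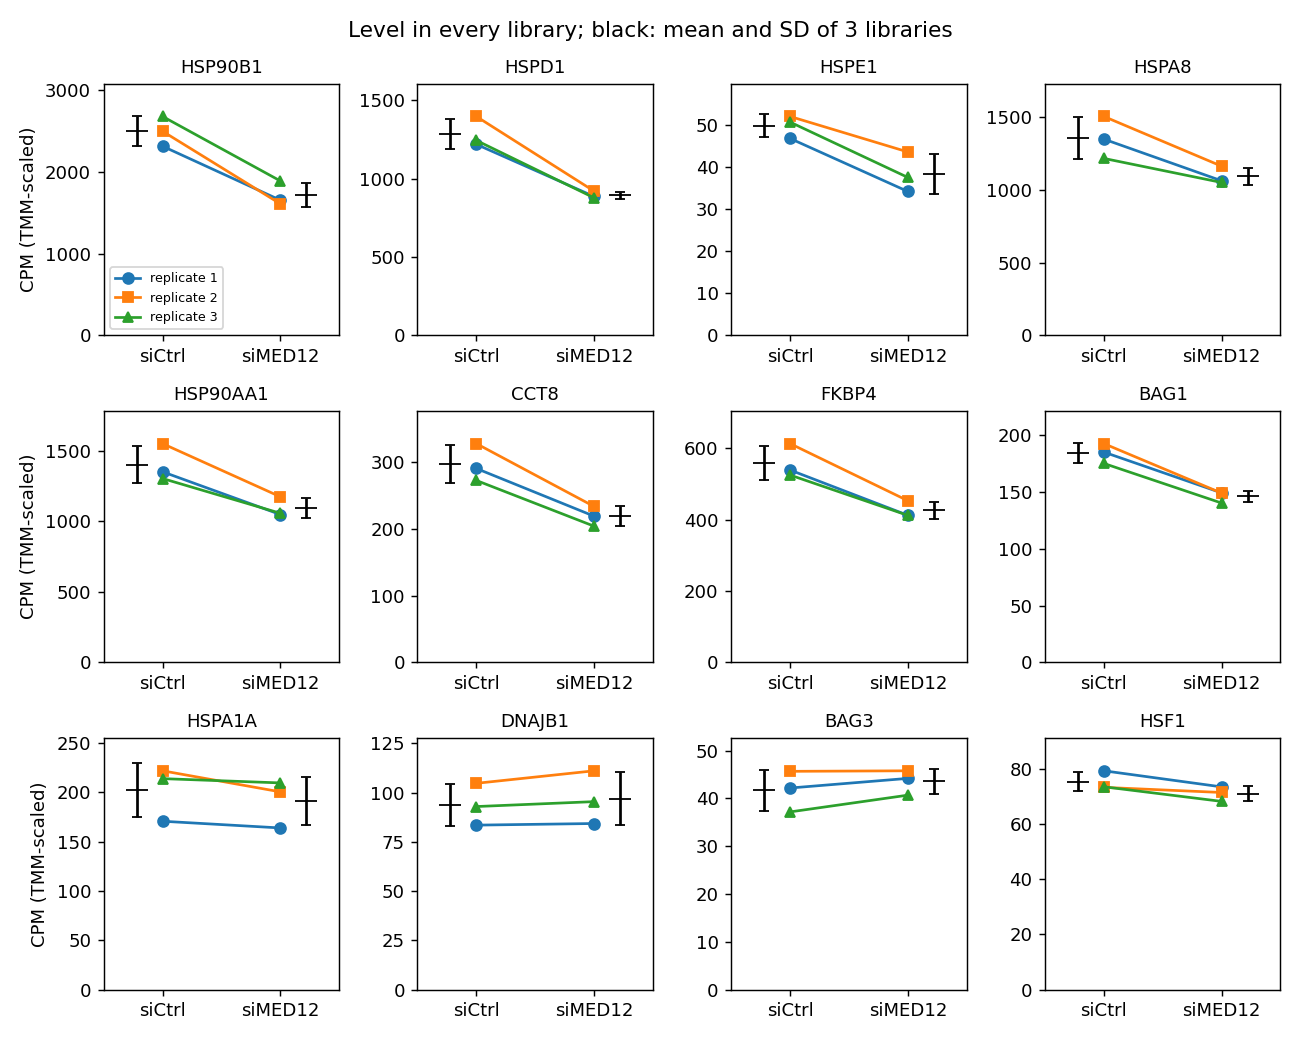
Level of 12 members in CPM (y axis, from 0) in the siCtrl and siMED12 libraries; lines join libraries of the same replicate number, and black marks give the mean and SD of 3 libraries. HSP90B1, HSPD1, HSPE1, HSPA8, HSP90AA1, CCT8, FKBP4 and BAG1 slope down in all 3 pairs, while HSPA1A, DNAJB1, BAG3 and HSF1 lie nearly flat.

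**Figure D4:**
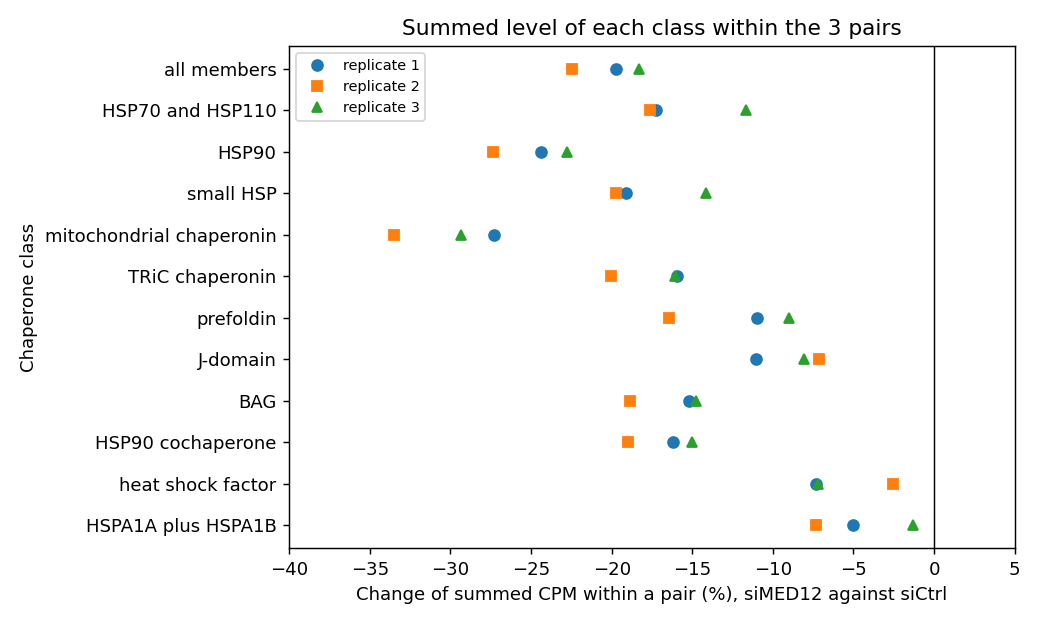
Change of the summed CPM of each class within the 3 pairs, in percent (x axis), with 1 marker per replicate number. All classes lie left of 0 in all 3 pairs, from -33.5% for the mitochondrial chaperonin in pair 2 to -1.30% for HSPA1A plus HSPA1B in pair 3.

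Members listed here as heat-inducible included genes that fell and genes that did not pass. The list holds HSPA8, although it was described above as the constitutive cytosolic HSP70. Of 11 such genes, 7 fell (HSPA8, HSPH1, HSP90AA1, HSPB1, HSPD1, HSPE1 and DNAJA1) and 4 did not pass (HSPA1A, HSPA1B, DNAJB1 and BAG3). Their median log2 fold change was -0.27, against -0.24 for the 32 other members, of which 22 fell. The summed levels changed by -20.6% and -20.1%. HSPA8 alone had a mean of 1355 CPM in siCtrl, out of 5358 CPM for the 11 genes, so their sum rests partly on it. All 4 genes that did not pass had log2 fold changes between -0.08 and 0.07. The difference between the 7 and the 4 genes was seen in these same values and was not tested. Paired heat shock units were found in the promoters of HSPA1A, HSPA1B and DNAJB1 as well as of HSPA8, HSP90AA1, HSPB1, HSPD1 and DNAJA1.

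Per transcript length, HSP90B1, HSPA8, HSP90AB1, HSPD1, HSPB1 and HSP90AA1 led the members. In siCtrl, HSP90B1 had 897 ± 65.4 CPM per 1000 bases of its canonical transcript (SD), followed by HSPA8 with 599 ± 63.7, HSP90AB1 with 585 ± 58.8, HSPD1 with 573 ± 42.9, HSPB1 with 489 ± 14.1 and HSP90AA1 with 434 ± 40.6 CPM per 1000 bases. HSPA8, HSP90AB1 and HSPD1 did not differ beyond their spread, and the next members, CCT3 at 236 ± 17.8 and CCT6A at 211 ± 22.1 CPM per 1000 bases, also lay within each other's spread. TRiC subunits ran from 94.9 (CCT4) to 236 (CCT3) CPM per 1000 bases, although the complex holds its subunits in equal number. HSPE1, the partner of HSPD1, had 89.5 ± 4.88 CPM per 1000 bases, against 573 for HSPD1. HSPA1A stood at 84.2 ± 11.5 CPM per 1000 bases without any heat treatment, and BAG2 was lowest at 2.17. These levels depend on the transcript assumed for each gene and on how reads with several matches were counted, which was not given. Stretches of 50 bases shared with other genes made up 48.2% of HSPE1 and 27.1% of HSPD1, so the gap between the 2 genes is uncertain.

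**Figure D5:**
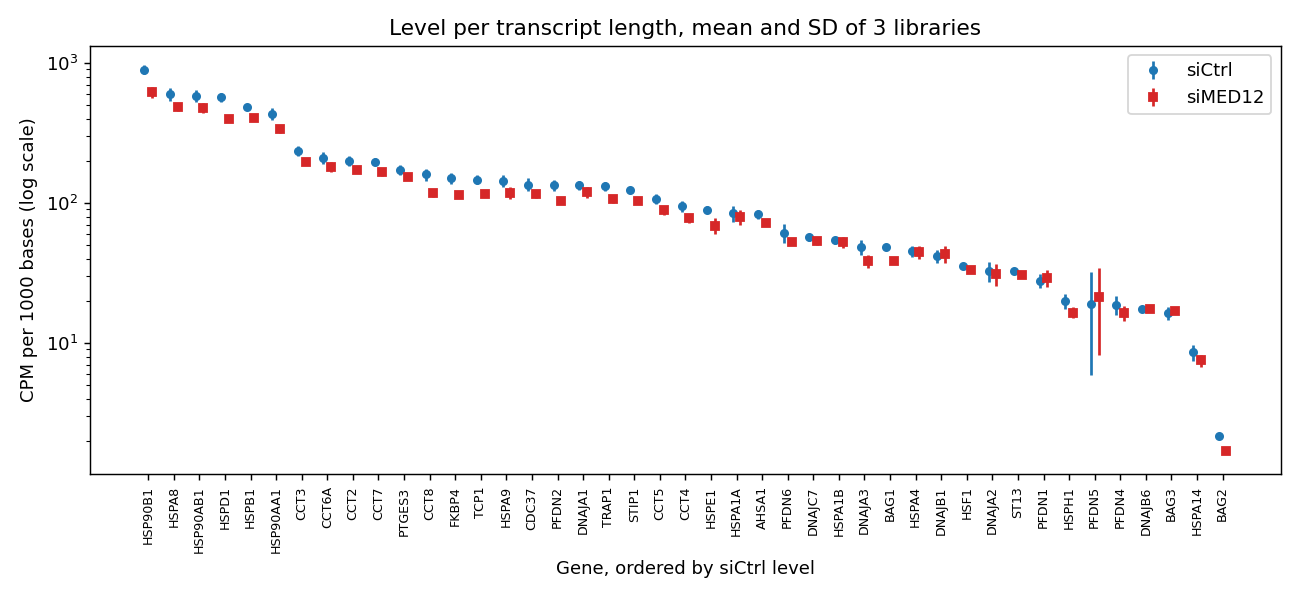
Level of each member in CPM per 1000 bases of transcript (y axis, log scale) in siCtrl (circles) and siMED12 (squares), mean and SD of 3 libraries, ordered by the siCtrl level. The order runs from HSP90B1 at 897 to BAG2 at 2.17 CPM per 1000 bases in siCtrl.

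The wider chaperone network held genes that fell and genes that rose. Of 78 other chaperone genes 75 were tested (HSPA12B, DNAJC15 and CRYAB were not), 53 had a log2 fold change below 0 (70.7%, against 47.6% of all genes), and the median was -0.08. With the block 22 of the 75 passed as lower (29.3%, against 16.2% of all genes) and 5 as higher (6.67%, against 17.1%), and without it 1 was lower and 0 higher (14 lower and 2 higher at an unadjusted p below 0.05). The single gene called without the block was HSPB6, a small heat shock protein, at 235.8, 265.8 and 221.6 CPM in siCtrl against 136.6, 133.3 and 123.6 CPM in siMED12. This was a larger change than in any of the 43 members, with a log2 fold change of -0.88 (adjusted p = 0.0271 unblocked and 2.33e-18 blocked). Leaving out any one of siCtrl replicate 1, siCtrl replicate 2, siMED12 replicate 1 and siMED12 replicate 2 ended the unblocked call, as it ended that of MED12. Each of these fits called 0 genes lower and 0 higher among all genes tested.

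The other genes with the smallest blocked p among those that fell were HSPA5, FKBP5 and HYOU1. HSPA5 (BiP), the HSP70 of the endoplasmic reticulum, measured 1438, 1748 and 1686 CPM in siCtrl against 1038, 1177 and 1220 CPM in siMED12 (-0.50 ± 0.03, adjusted p = 9.69e-15 with the block). HYOU1, its nucleotide exchange factor, went from 580.4, 648.4 and 658.3 CPM to 480.1, 470.0 and 523.0 CPM (-0.36 ± 0.04, adjusted p = 1.48e-09). FKBP5, an androgen-induced relative of FKBP4 that competes with it for HSP90, went from 783.0, 628.1 and 527.2 CPM to 579.6, 464.4 and 419.2 CPM (-0.40 ± 0.04, adjusted p = 3.64e-11). HSPA5 and HYOU1 did not overlap between groups, while FKBP5 did. Among other genes of the endoplasmic reticulum on the same list, DNAJC10 (-0.24, adjusted p = 1.64e-05 with the block) and DNAJB11 (-0.22, adjusted p = 0.00366) fell. DNAJC3 also fell (-0.11, adjusted p = 0.0466), a call lost with the block and scaling by library size alone (adjusted p = 0.195). SIL1 (-0.03), HSPA13 (-0.06), DNAJB9 (-0.11), SERPINH1 (-0.08) and DNAJC1 (0.05 on the log2 scale) did not pass.

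The 5 genes that passed as higher made up a smaller share than among all genes. Of these, AHSA2P, a transcribed relative of AHSA1, measured 48.13, 42.76 and 96.13 CPM in siCtrl against 63.02, 65.54 and 126.6 CPM in siMED12 (0.46 ± 0.06, adjusted p = 4.46e-08), with replicate 3 highest in both groups. DNAJB2, a J-domain protein that sorts clients to the proteasome, went from 35.81, 39.6 and 36.7 CPM to 44.37, 45.78 and 47.82 CPM (0.30 ± 0.07, adjusted p = 0.000748). FKBP8, a membrane-anchored immunophilin, and UNC45A, a myosin-directed HSP90 cochaperone, had smaller changes of 0.18 (adjusted p = 0.000803) and 0.18 (adjusted p = 0.00534). No prefoldin or tubulin partner outside the members, of 11 tested, passed in either direction with the block.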

How the data were processed

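RNA-seq counts of 3 siCtrl and 3 siMED12 libraries of 22Rv1 cells were used, grouped and numbered by the labels. The authors deposited raw counts of reads for each gene, made in R with Rsubread against GRCh38 with a Gencode annotation. How reads with several matches were handled, and whether counting used the strand, was not given in the sources used here. The deposited log2 CPM values were recomputed from the counts (edgeR, prior count 2), with a largest difference of 4.96e-09.

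The counts were tested with edgeR version 4.0.16 (R version 4.3.3): expression filter, TMM scaling, quasi-likelihood F-test (two-sided) with treatment as the only term, and Benjamini-Hochberg adjustment over 17901 genes at a threshold of 0.05. Standard errors were taken as the absolute log2 fold change divided by the square root of the F statistic. The members and all gene lists were chosen with earlier results of these data known. Same-numbered libraries had correlated deviations from their group means (0.532, 0.373 and 0.643, against -0.46 to -0.0233 for unlike numbers), so the numbers were taken as pairs and the blocked fit is given beside the unblocked one where it changes a call or a count. Deviations within a group sum to 0, so positive values for like numbers bring negative ones for unlike numbers. The pairing was thus inferred from the numbering and from these same data. Chi-square per degree of freedom between replicates of a group was 10.26 or more, so none was a duplicate.

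All 43 members were named. Values in every library were given for the member with most counts and up to 3 with the smallest blocked p in each class, and for members whose pairs differed in sign. Of the other chaperone genes, those called without the block were named, and in each direction the 4 with the smallest blocked p and a mean of at least 10 CPM. Further members were shown by library, and further chaperone genes named, after their values were seen. Alternatives were other scalings, DESeq2's Wald test (1.42.0), limma-trend (3.58.1), no expression filter, the replicate block, a loess offset (span 0.5) for GC content and length in the blocked fit (17897 genes) and leaving out each library or pair. On simulated data of 17560 genes for the siMED12 and siCtrl comparison, 195 of them changed 2-fold, the fit without the block recovered 69 with 0 false calls and the blocked fit 164 with 8 false calls. The simulated counts carried replicate effects and dispersions taken from the blocked fit of these data, which favoured the blocked fit by construction. The simulation therefore cannot show which fit suits the real libraries. Positions came from Gencode release 44 and promoters from RefSeq.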

Additional observations from a re-analysis of the deposited data

How the results depend on the processing

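Results depended mainly on the pairing. With the replicate block the members called lower went from 0 to 29, and within the blocked fit the count was 28 when scaled by library size only, 29 by DESeq2 size factors, 27 with the DESeq2 Wald test, 30 with the GC and length offset and 27 to 29 when a pair was left out. Of all 17901 genes tested, the block called 2908 lower and 3058 higher. The first 4 changes gave 2413, 3069, 2064 and 2997 genes lower (the last of 17897). They gave 3807, 2960, 1797 and 2785 higher. Without a pair, 2578 to 2654 genes were lower and 2070 to 2375 higher. Without the block the count of members called lower was 1 with library size only and 1 with limma-trend (HSPD1 in both), 8 with the DESeq2 Wald test and 3 without the expression filter. In the same order, these fits called 49, 78, 493 and 290 genes lower and 31, 27, 331 and 186 higher. The fit without the filter tested 34030 genes and the others 17901. No alternative called a member higher. The members' median log2 fold change was -0.25, -0.21 with library size only, with or without the block, and -0.30 to -0.20 when a library was left out. Other chaperone genes called lower went from 1 to 22 with the block (20 scaled by library size only, 23 by DESeq2 size factors, 20 with the Wald test, 30 with the GC and length offset, 21 to 22 without a pair), to 5 with the unblocked Wald test, to 2 without the filter and to 0 or 1 without a library. Those called higher went from 0 to 5 with the block (7, 5, 4 and 7 with the same changes and 3 to 4 without a pair). MED12 kept its direction when a library was left out (-1.90 to -1.45, adjusted p = 0.0325 to 0.186) and lost its call without siCtrl replicate 1 or 2 or siMED12 replicate 1 or 2. Each of these losses came in a fit that called 0 genes in either direction.

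Reversals concerned members that were not called with treatment as the only term or with the block alone. DNAJA2, which is among them, passed with the GC and length offset. With all libraries and no block, their log2 fold changes ran from -0.09 (HSF1) to 0.17 (PFDN5). With library size only, HSPA4 became 0.029 and DNAJB6 0.028 without the block and 0.027 and 0.028 with it, and with the offset HSPA1B became 0.0090 and HSF1 0.0034. When a library was left out of the unblocked fit, 7 members changed sign in at least 1 case: PFDN5 (-0.45 to 0.89), PFDN1 (-0.046 to 0.17), DNAJB1 (-0.082 to 0.14), HSPA4 (-0.11 to 0.068), DNAJA2 (-0.20 to 0.062), BAG3 (-0.014 to 0.13) and HSPA1A (-0.21 to 0.0032). When a pair was left out of the blocked fit, PFDN1 ran from -0.014 to 0.11 and DNAJB1 from -0.00039 to 0.051. Over members and alternatives, 557 values kept direction and call, 239 gained a call and 21 reversed. The tally is against the fit without the block, which called 0 members, so no member could lose a call in it. Calls lost within the blocked fit, as for PFDN6 and BAG2, are not part of it. The cause of these shifts was not tested. The median over all genes was 0.02 with TMM, 0.06 with library size only and 0.01 after scaling by DESeq2 size factors.

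BAG2, HSPA14 and PFDN5 rested on the fewest counts of the members.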
